A study of Rattus norvegicus with 20 samples.

Results

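The genes described here are 10 genes of fat cells and fat synthesis measured in rat kidney, named by symbol in either deposited table and carried to the other by gene identifier: Ucp1, Thrsp, Fasn, Adipoq, Plin1, Fabp4, Cidec, Lipe, Retn and Cfd. All 10 were found, out of 32521 genes listed in both tables. They were chosen for lower levels with tacrolimus, so the tacrolimus values below are a description and carry no test. Cidec goes against that choice: its groups differed by less than their spread.

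The study compared the kidney toxicity of cyclosporine A and tacrolimus, calcineurin inhibitors used against transplant rejection. Its 20 bulk RNA libraries came from entire kidneys of wild-type male Wistar rats aged 10 to 12 weeks, which carried subcutaneous osmotic minipumps for 28 days. The first table holds 4 libraries of saline vehicle and 4 of cyclosporine A (target trough given as 3 mg/ml). The second holds 6 libraries of a vehicle of 25% DMSO and 75% PEG500 (DMSO/PEG) and 6 of tacrolimus (target trough 3.5 ng/ml). Levels are in FPKM, which corrects fragment numbers for the length of a gene and the depth of a library, and the tables were scaled separately, so levels are compared within a table only.

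White fat cells store triglyceride in a single droplet that perilipins and CIDE proteins coat, release it through lipases, and secrete adiponectin, resistin and adipsin. Brown fat cells burn fatty acids for heat through the uncoupling protein UCP1 of the inner mitochondrial membrane. New fatty acids are made from acetyl-CoA by acetyl-CoA carboxylase and fatty acid synthase. The kidney lies in fat, and whole-organ RNA can hold RNA of fat around the capsule, hilum and renal pelvis. In whole-organ RNA, fewer fat cells and less RNA per fat cell cannot be told apart.

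Depth ran from 30467652 to 34307942 fragments for saline and cyclosporine A and from 31670202 to 39358485 for DMSO/PEG and tacrolimus. Mitochondrial transcripts took 49.7% to 68.6% of the fragments with saline and 80.2% to 90.8% with cyclosporine A, against 10.5% to 13.7% with DMSO/PEG and 10.8% to 15.9% with tacrolimus. Kidney markers were present in every library, and the 11 of them summed to 8146 to 10191 FPKM with DMSO/PEG and 7089 to 8488 FPKM with tacrolimus. Of these 11 genes, only Slc12a3, the thiazide-sensitive cotransporter, passed the test with tacrolimus, and it was lower.

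The promoters of the genes that differed most with tacrolimus among the 10, Ucp1 and Thrsp, are shown beside that of the white fat hormone Adipoq, whose groups overlapped. RefSeq promoter sequence (build GRCr8) was found for 7 of the 10 genes, not for Fasn, Fabp4 or Lipe. Each run is the 250 bases before the annotated start, 5′ to 3′ on the gene's strand, at chr19:41721422-41721671 (minus strand), chr1:161138965-161139214 (minus strand) and chr11:91240170-91240419 (minus strand). Capitals mark matches to the motifs searched.
Ucp1: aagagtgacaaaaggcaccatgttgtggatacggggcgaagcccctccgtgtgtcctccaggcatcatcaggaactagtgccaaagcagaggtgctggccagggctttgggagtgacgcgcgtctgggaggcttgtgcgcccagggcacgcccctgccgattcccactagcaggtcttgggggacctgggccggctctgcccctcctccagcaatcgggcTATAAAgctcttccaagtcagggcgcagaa
Thrsp: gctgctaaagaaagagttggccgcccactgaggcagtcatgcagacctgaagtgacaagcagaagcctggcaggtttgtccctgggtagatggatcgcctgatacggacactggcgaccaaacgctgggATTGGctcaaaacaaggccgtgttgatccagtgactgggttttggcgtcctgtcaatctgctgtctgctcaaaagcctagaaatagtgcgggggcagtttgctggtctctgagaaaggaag
Adipoq: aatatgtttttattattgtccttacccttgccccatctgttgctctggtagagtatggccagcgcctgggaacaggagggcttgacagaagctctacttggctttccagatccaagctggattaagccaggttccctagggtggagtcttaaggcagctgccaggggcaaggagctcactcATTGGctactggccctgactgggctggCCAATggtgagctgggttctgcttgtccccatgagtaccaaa
Motifs were searched on both strands. TATAAA, the TATA box, is in the Ucp1 run and in 12.9% of 33469 promoters of this length. CCAAT, read as ATTGG on the other strand, is in the Thrsp, Adipoq and Plin1 runs and in 34.0% of all promoters. AGGTCA, the core of nuclear receptor sites, is in the Retn run alone among the 7 and in 14.1% of all promoters. CACGTG (E-box, 5.6% of all promoters), TTGCGCAA (C/EBP, 0.1%) and TCACCCCAC (SREBP, 0.4%) are in 0 of the 7. These letters are matches, not sites shown to be bound.

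With tacrolimus, the levels of Ucp1, Thrsp and Fasn were lower in all 6 libraries than in any of the 6 DMSO/PEG libraries. The other 7 genes had lower means with tacrolimus, but their groups overlapped. Fold changes are drug minus vehicle on the log2(FPKM + 1) scale, with a standard error (SE), which understates changes of low genes. The 10 fitted values ran from -3.33 to -0.10 with a median of -1.29, beside a median of 0 for all 15554 genes tested. In the fit across all genes, 3 of the 10 passed the threshold (limma, adjusted p under 0.05, Benjamini-Hochberg adjustment), where 0.302% of all genes did (0.283% lower). The 3 whose groups did not overlap, all lower, stand beside 0.669% of all genes. Ucp1 met the filter on fragments only through the vehicle libraries, where it is high. Since the genes were picked on this contrast, nothing is read from these counts.

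Ucp1 (ENSRNOG00000003580), on chromosome 19 (24456976 to 24464807, plus strand, positions as deposited, build rn6 per the submitters' processing notes), encodes the heat-producing uncoupling protein. Its level with DMSO/PEG had a lowest value of 6.19 FPKM, a median of 15.7 and a highest of 25.8. With tacrolimus it had a lowest of 0, a median of 0.105 and a highest of 2.45. The highest tacrolimus library, replicate 5, thus lay under the lowest vehicle library. Fragments behind these values numbered 267 to 1113 per vehicle library and 9, 1, 49, 0, 100 and 0 in tacrolimus replicates 1 to 6. In the 2 libraries without a fragment, 3 fragments would have been 0.0666 and 0.0751 FPKM. The mean was 15.1 ± 7.73 FPKM with vehicle and 0.619 ± 0.984 FPKM with tacrolimus (SD, n = 6 each), a ratio of means of 24.4, and the fold change was -3.33 (SE 0.39).

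Thrsp (ENSRNOG00000012404, chromosome 1, 162381253 to 162385575, minus strand) encodes Spot 14, a nuclear protein tied to the induction of fat synthesis genes. Its vehicle libraries had a lowest level of 29.4 FPKM, a median of 45.5 and a highest of 67.5. The tacrolimus libraries had a lowest of 3.62, a median of 5.72 and a highest of 15.4, in replicate 3. The means of 47.2 ± 18.5 and 7.97 ± 5.12 FPKM (SD, n = 6 each) gave a ratio of 5.93 and a fold change of -2.52 (SE 0.35).

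Fasn (ENSRNOG00000045636, chromosome 10, 109987735 to 110005901, minus strand) encodes fatty acid synthase, which makes palmitate. Its levels ranged from 17.8 to 29.9 FPKM with vehicle (median 22.8) and from 7.55 to 10.5 FPKM with tacrolimus (median 8.57). Its tacrolimus libraries lay close together, with a mean of 8.73 ± 1.00 FPKM (SD, n = 6) against 23.0 ± 4.46 FPKM. The fold change was -1.29 (SE 0.11), the smallest SE of the 10 genes.

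Adipoq (ENSRNOG00000001821, chromosome 11, 81330293 to 81344488, minus strand), which encodes the fat cell hormone adiponectin, had overlapping groups. Its vehicle levels had a lowest value of 7.87 FPKM, in replicate 6, a median of 19.6 and a highest of 27.6. In tacrolimus replicates 1 and 3 it was at 22.8 and 18.8 FPKM, within the vehicle range, while the other 4 lay between 5.36 and 8.90. The fold change was -0.84 (SE 0.38).

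The other secreted products were split in the same way across libraries. Retn (ENSRNOG00000001001, chromosome 12, 2201891 to 2204249, plus strand), which encodes resistin, ranged from 2.77 to 7.19 FPKM with vehicle (median 5.64) and from 0.499 to 3.26 with tacrolimus (median 1.02). Its 4 low tacrolimus libraries were under the lowest vehicle library, and the fold change was -1.38 (SE 0.26). Cfd (ENSRNOG00000033564, chromosome 7, 12634216 to 12635943 in the tacrolimus table, minus strand), which encodes the complement protease adipsin, ranged from 4.82 to 31.8 FPKM with vehicle (median 17.0) and from 2.84 to 16.2 with tacrolimus (median 4.66). The fold change of Cfd was -1.29 (SE 0.45).

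Among lipid handling genes, Fabp4 (ENSRNOG00000010805, chromosome 2, 93792601 to 93797305, plus strand), the fat cell fatty acid carrier, ranged from 52.5 to 193 FPKM with vehicle (median 112) and from 22.3 to 97.1 with tacrolimus (median 34.98). Its fold change was -1.31 (SE 0.38). Plin1 (ENSRNOG00000015086, chromosome 1, 141458181 to 141471010, minus strand), which coats the fat cell droplet, ranged from 2.10 to 8.38 FPKM and from 0.999 to 6.93 FPKM, with a fold change of -0.88 (SE 0.36). Lipe (ENSRNOG00000020546, chromosome 1, 82248046 to 82266727, minus strand), which encodes hormone-sensitive lipase, ranged from 3.66 to 8.82 FPKM and from 2.56 to 5.18 FPKM, with a fold change of -0.73 (SE 0.19). For these 3 genes, as for Adipoq, tacrolimus replicates 1 and 3 were the highest of their group.

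Cidec (ENSRNOG00000009153, chromosome 4, 145377431 to 145390497, minus strand), which encodes a droplet fusion protein, went against the choice of genes. It ranged from 17.7 to 29.7 FPKM with vehicle (median 24.7) and from 16.7 to 26.1 FPKM with tacrolimus (median 24.0). Its means of 24.2 ± 4.78 and 22.4 ± 3.86 FPKM (SD, n = 6 each) differed by less than the spread within a group, and its fold change was -0.10 (SE 0.14).

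**Figure D1:**
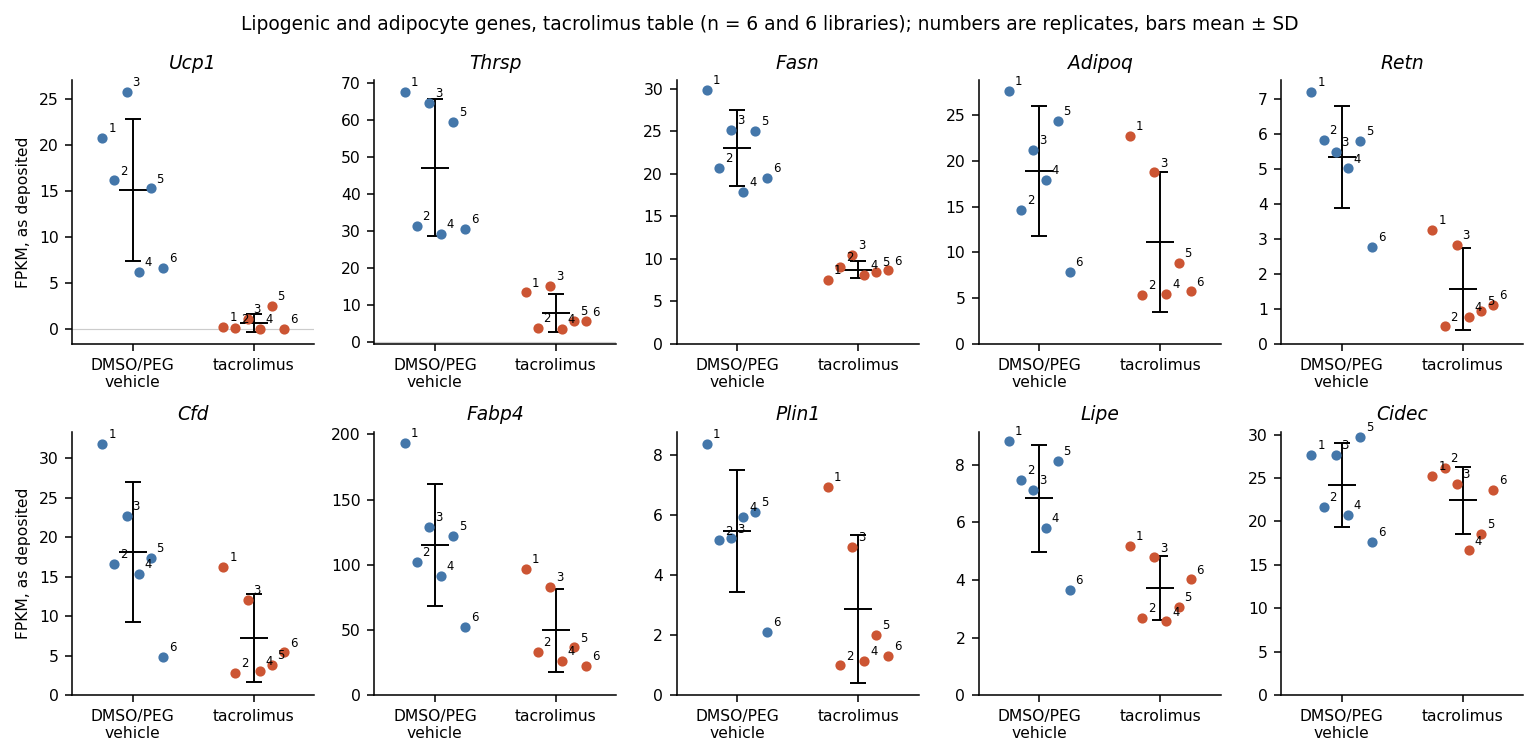
FPKM of each of the 10 genes in every DMSO/PEG and tacrolimus library, 1 point per library, with the mean and SD of each group (n = 6). The tacrolimus points of Ucp1, Thrsp and Fasn all lie below the vehicle points, those of the other 7 genes overlap them, and those of Cidec span about the same range.

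The 10 genes did not all follow the same libraries. Tacrolimus replicates 1 and 3 were the highest pair of the group for 7 genes: Adipoq, Cfd, Fabp4, Lipe, Plin1, Retn and Thrsp. For Fasn, replicate 1 was the lowest tacrolimus library and replicate 3 the highest. For Ucp1, replicate 5 was the highest. In the vehicle group, replicate 6 was the lowest library for 7 genes, which were Adipoq, Cfd, Cidec, Fabp4, Lipe, Plin1 and Retn, while replicate 4 was the lowest for Fasn, Thrsp and Ucp1. Vehicle replicate 1 was the highest for 8 of the 10.

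Levels were also set against Adipoq in the same library, as a description. Both parts of each ratio were chosen on this contrast, and the share of all genes whose ratio does not overlap was not computed. Nothing is therefore read from which ratios overlap. The ratio of Thrsp to Adipoq ran from 1.64 to 3.89 with vehicle and from 0.593 to 0.993 with tacrolimus, without overlap. That of Ucp1 ran from 0.346 to 1.22 and from 0 to 0.275, and that of Retn from 0.238 to 0.399 and from 0.0931 to 0.193, both without overlap. The ratio of Fasn overlapped, with 0.996 to 2.49 and 0.332 to 1.69. Those of Plin1 (0.246 to 0.353 and 0.187 to 0.304) and Fabp4 (5.03 to 7.0 and 3.90 to 6.21) overlapped too, as did those of Cfd, Lipe and Cidec.

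**Figure D2:**
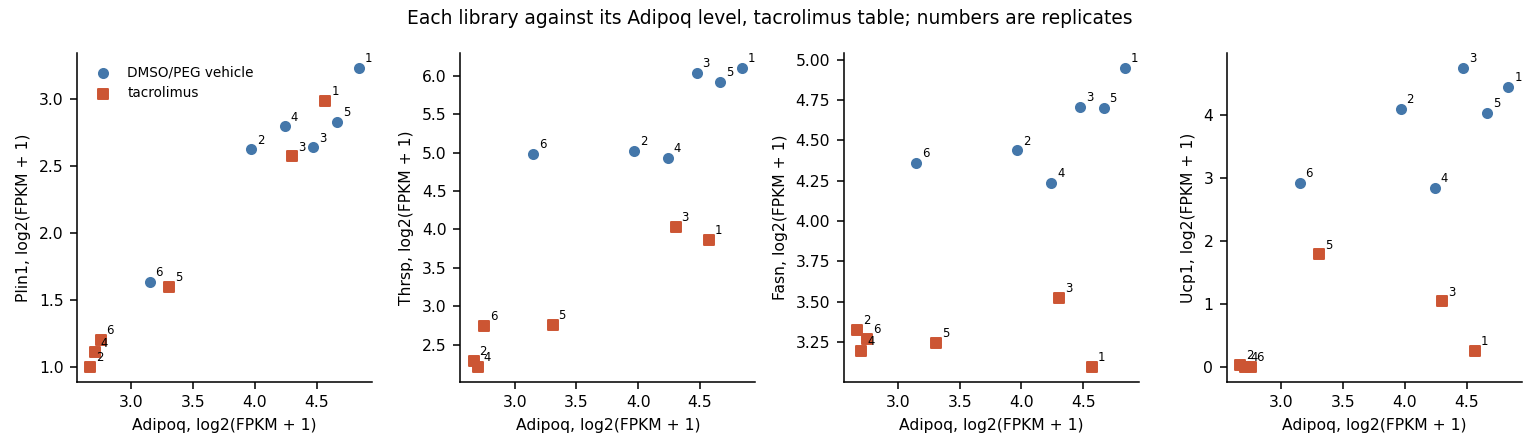
Levels of Plin1, Thrsp, Fasn and Ucp1 against Adipoq on the log2(FPKM + 1) scale, 1 point per DMSO/PEG or tacrolimus library. Plin1 points of both groups lie along a single band. The Thrsp, Fasn and Ucp1 points of every tacrolimus library, replicates 1 and 3 included, lie below all vehicle points, whatever the Adipoq level. These genes were chosen for lower levels with tacrolimus, so nothing is read from this.

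Within the 6 vehicle libraries, which the choice of genes did not use as a contrast, the genes were correlated with Adipoq on the log2(FPKM + 1) scale. Pearson's r was 0.945 for Plin1 (Spearman's rho 0.943), 0.943 for Fabp4 (rho 0.886), 0.937 for Cfd (rho 0.886), 0.914 for Retn (rho 0.657), 0.911 for Cidec (rho 0.771) and 0.910 for Lipe (rho 0.829). For Thrsp r was 0.774 (rho 0.771), for Fasn 0.713 (rho 0.771) and for Ucp1 0.656 (rho 0.486). The exact 2-sided permutation p for r ran from 0.0111 (Fabp4) to 0.203 (Ucp1), where 0.00278 is the smallest that 6 libraries allow, and those for rho from 0.0167 (Plin1) to 0.356 (Ucp1). After Benjamini-Hochberg adjustment over the 18 relations computed in the vehicle and tacrolimus groups, the lowest permutation p for r was 0.0636 here, so no relation passed, although the unadjusted permutation p for r was under 0.05 for Fabp4, Plin1, Cidec, Cfd and Retn. Over the 4 libraries left without vehicle replicates 1 and 6, the farthest from the Adipoq median, r was 0.554 for Plin1, 0.421 for Cfd, 0.350 for Lipe and 0.0619 for Retn. It was 0.883 for Cidec, 0.839 for Thrsp, 0.706 for Fabp4, 0.691 for Fasn and 0.255 for Ucp1. Leaving those libraries out narrows the range of Adipoq, which can lower r by itself. The values over 4 libraries therefore neither bear out the high r nor tell against it. The tacrolimus libraries fell into separate sets, replicates 1 and 3 and the other 4, so no r is given for that group alone, although its relations are among the 18 adjusted.

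Outside the 10 genes, those with the pattern closest to Adipoq were sought over all 12 libraries of the tacrolimus table after each group's mean was subtracted, as a description without a test in which all genes share the same libraries. The split of the tacrolimus libraries, replicates 1 and 3 against the other 4, enters each of these values. Trarg1 was the closest of these (r 0.976), and the closest 8 also held Plin4 (0.968), Postn (0.960), Ca3 (0.956), Nat8l (0.951), S100b (0.942) and Aoc3 (0.927). Plin4 is a further droplet coat protein, Trarg1 a protein of glucose transporter traffic in fat cells, and S100b a calcium-binding protein also known from glia. Over the 8 libraries of the other table, r was 0.216 (Trarg1), 0.511 (Ca3), 0.612 (S100b) and 0.470 (Aoc3), while Plin4, Postn and Nat8l were not tested there. In the tacrolimus table, r was over 0.8 for 6 of the other 9 genes described here (Plin1 0.979, Fabp4 0.960, Retn 0.942, Cfd 0.930, Thrsp 0.895 and Lipe 0.850) and for 0.328% of all genes. It was 0.592 for Cidec, 0.472 for Ucp1 and 0.390 for Fasn. Over the 8 libraries of the cyclosporine A table none of the 8 other genes tested reached 0.8, with r of 0.737 for Thrsp, 0.702 for Fasn, 0.665 for Cfd, 0.580 for Lipe, 0.339 for Plin1, 0.253 for Fabp4, -0.236 for Retn and -0.914 for Cidec.

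The 10 defining markers of fat cells, 7 of which are genes chosen on this contrast, summed to 93.4 to 310 FPKM with vehicle (median 198) and 57.5 to 182 FPKM with tacrolimus (median 74.8). Fabp4 alone gave 52.5 FPKM of the lowest vehicle sum and 193 of the highest. None of the 10 markers was at 0 in any library. The other 3, Lep, Plin4 and Pparg, summed to 2.02 to 5.57 FPKM and 1.45 to 5.02 FPKM, which overlap, with fold changes of -0.51 to -0.21. In limma 0 of the 3 passed, and 2 had an unadjusted p under 0.05, beside 8.56% of all genes. The 7 defining markers of brown fat cells, Ucp1 among them, summed to 19.2 to 55.1 FPKM with vehicle and 8.19 to 14.5 FPKM with tacrolimus, with 2 of the 7 at 0 in some library. Without Ucp1, which was chosen on this contrast, the other 6 summed to 13.04 to 33.0 FPKM and 8.10 to 13.5 FPKM, so the ranges overlapped. Summed markers of other tissues overlapped between the groups: the 9 adrenal cortex markers summed to 1.16 to 2.48 and 0.868 to 1.77 FPKM, the 10 of skeletal muscle to 4.29 to 6.07 and 4.77 to 6.49, the 7 of vessels to 152 to 203 and 153 to 203, and the 7 of mesothelium and capsule to 37.6 to 52.8 and 42.3 to 51.2. The 6 red blood cell markers summed to 819 to 3379 FPKM with vehicle and 787 to 2611 FPKM with tacrolimus. As for Adipoq, vehicle replicate 1 was the highest and replicate 6 the lowest, and tacrolimus replicates 3 and 1 were the highest of their group (2611 and 1518). The 8 lymphocyte and macrophage markers summed to 23.7 to 48.3 and 21.5 to 31.4. The part of fat tissue left on the kidney, or of blood, in these differences was not tested. Without tacrolimus replicates 1 and 3, a comparison added after the data were seen, the fold changes were -3.39 for Ucp1, -3.0 for Thrsp, -1.31 for Fasn and -1.36 for Adipoq, and 5 of the 10 genes passed the threshold (0.251% of all genes), Fabp4 and Retn being added. The libraries left out there are the highest of the drug group for 7 of the 10 genes, so nothing is read from that count.

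Other genes of the same pathways were counted from lists, with the genes above left out. Of 24 further fat synthesis genes tested with tacrolimus, 1 was lower and 0 were higher, where 0.283% of all genes passed as lower, and the median fold change was -0.078. At an unadjusted p under 0.05 there were 6, beside 8.56% of all genes. The 1 lower gene was Scd, the stearoyl-CoA desaturase that makes monounsaturated fatty acids. It ranged from 6.03 to 38.0 FPKM with vehicle (median 14.3) and from 0.210 to 7.92 with tacrolimus (median 0.467), with 5 libraries below every vehicle library and replicate 3 inside the vehicle range. Its fold change was -2.97 (SE 0.54, limma adjusted p 0.0384), and the call was lost in 10 of 19 alternatives (adjusted p 0.0695 to 0.108). In 9 of these a single library was left out, any of DMSO/PEG replicates 1, 3, 4 and 5 or of tacrolimus replicates 1, 2, 4, 5 and 6.

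Acetyl-CoA carboxylase, encoded by Acaca, was below the lowest vehicle library in all 6 tacrolimus libraries (2.32 to 3.03 FPKM against 3.14 to 4.42) but missed the threshold, with a fold change of -0.37 (SE 0.07, limma adjusted p 0.0675). Acly, which encodes the enzyme that supplies acetyl-CoA, had -0.25 (limma adjusted p 0.141). The regulators of fat synthesis Srebf1 and Mlxipl had -0.04 (adjusted p 0.960) and -0.14 (adjusted p 0.888) in the same limma fit.

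Of 12 further brown fat genes tested, 2 passed, Cidea and Otop1, both lower, and the median of the 12 was -0.298. Otop1 is given no weight, as explained below, which leaves Cidea, where 0.283% of all genes passed as lower. At an unadjusted p under 0.05 there were 6, Otop1 included, beside 8.56% of all genes. Cidea, a droplet protein of brown fat, ranged from 4.53 to 15.04 FPKM with vehicle and from 2.19 to 5.52 FPKM with tacrolimus (fold change -1.36, SE 0.24, limma adjusted p 0.0286). This call too was lost in 10 of 19 alternatives (adjusted p 0.0626 to 0.0852), among them without any 1 of DMSO/PEG replicates 1, 2, 3 and 5 or of tacrolimus replicates 1, 2, 4, 5 and 6. Otop1, an otopetrin proton channel gene, had 13 to 27 fragments in each vehicle library and 1 fragment in all tacrolimus libraries together. Otop1, like Ucp1, entered the test only through the vehicle libraries, where it is high, so its call is given no weight. Cox8b missed the threshold at -1.58 (limma adjusted p 0.0544).

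None of the 14 further white fat genes tested passed in the limma fit, 13 of them being fitted below 0 with a median of -0.178. At an unadjusted p under 0.05 there were 5, where 8.56% of all genes reached that level. Lep, which encodes leptin, had 0.163 to 1.29 FPKM with vehicle and 0.0462 to 1.43 with tacrolimus (adjusted p 0.896), and Pparg, the regulator of fat cell formation, had -0.34 (adjusted p 0.373). Of 15 further lipolysis and droplet genes 1 passed, Cidea again, beside the 0.302% of all genes, and 5 had an unadjusted p under 0.05. Of 12 uptake genes, 10 adipokine genes and 18 regulators of fat cell formation 0 passed (2, 1 and 2 at an unadjusted p under 0.05).

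**Figure D3:**
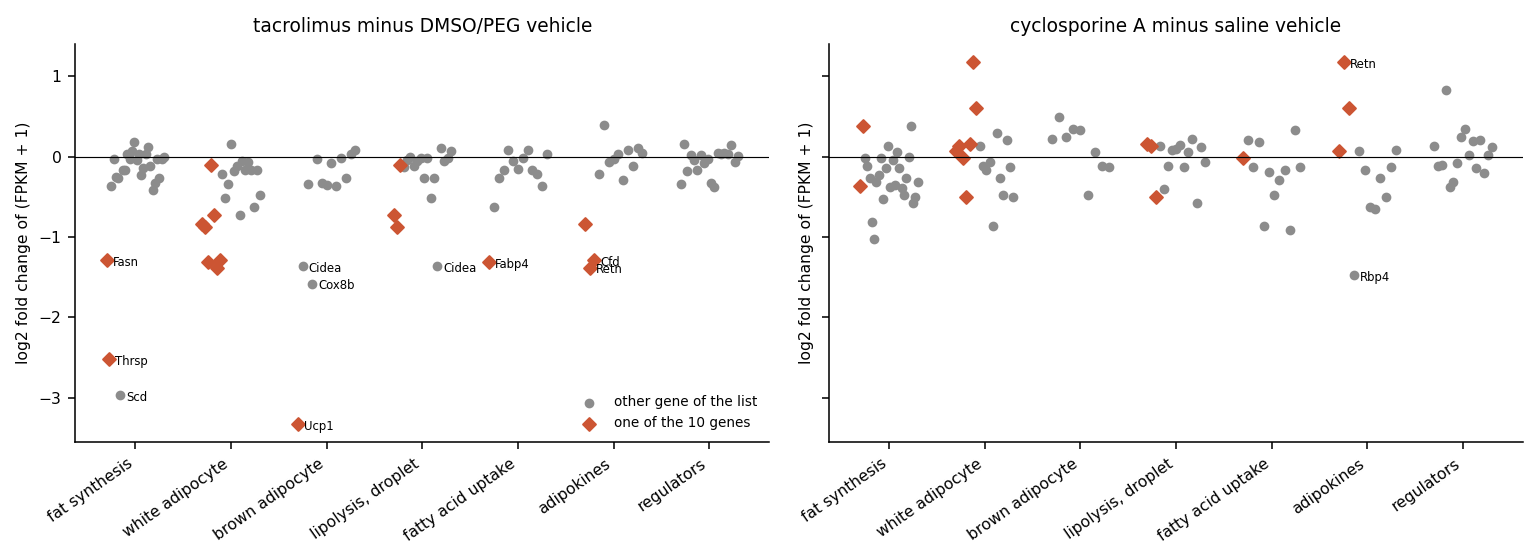
Fold change of each tested gene (drug minus vehicle, log2(FPKM + 1) scale) by gene list, for cyclosporine A on rescaled FPKM and tacrolimus on deposited FPKM. With tacrolimus the genes farthest below 0 include Ucp1 (-3.33), Scd (-2.97) and Thrsp (-2.52), while most regulators of fat cell formation lie near 0 (median -0.008).

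The rule that chose the genes used the tacrolimus contrast and not the cyclosporine A contrast, whose earlier results were nevertheless known. FPKM as deposited in this table counts mitochondrial fragments in the total, so values were first rescaled by median-of-ratios factors, which make the typical gene equal between libraries. Of the 9 genes tested, 0 passed in the limma fit, where 0.604% of all genes did, and 1, Retn, had an unadjusted p under 0.05, as did 16.1% of all genes. Cyclosporine A replicate 4 stood apart from the other libraries in its mitochondrial share (90.8%), red blood cell markers (5795 rescaled FPKM summed) and kidney markers (2236). Without it 0 of the 9 passed as well, and the fold changes given below became 0.09 for Thrsp, -0.47 for Fasn, -0.05 for Adipoq, 1.35 for Retn, 0.43 for Cfd, 0.01 for Fabp4, -0.23 for Cidec, 0.16 for Plin1 and 0.03 for Lipe. For 0 of the 10 did the groups fail to overlap, beside 10.9% of all genes.

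Ucp1 was too low for the fit, with rescaled FPKM of 0, 0, 0.489 and 0.743 in saline replicates 1 to 4 and 0, 0.371, 0 and 0.125 with cyclosporine A, from 0 to 46 fragments. In the 4 libraries at 0, 3 fragments would have been 0.0367 to 0.133 rescaled FPKM. Thrsp was at 0.595, 2.94, 9.51 and 10.7 with saline and 4.14, 5.51, 4.32 and 11.4 with cyclosporine A. Fasn was at 1.40, 1.03, 2.96 and 2.98 with saline and 1.23, 1.07, 1.12 and 1.82 with cyclosporine A. For all 3 genes the groups overlapped. The fold change of Thrsp was 0.38 (95% interval -0.92 to 1.68, limma adjusted p 0.805) and that of Fasn -0.37 (-0.90 to 0.16, adjusted p 0.484).

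Adipoq had rescaled FPKM of 3.69, 4.13, 5.33 and 4.46 with saline and 4.61, 4.12, 3.85 and 6.34 with cyclosporine A, a fold change of 0.07 (95% interval -0.28 to 0.43, limma adjusted p 0.869). Retn was at 0.0547, 0.274, 0.938 and 0.530 with saline and 0.926, 5.03, 3.05 and 1.21 with cyclosporine A. The lowest drug library thus lay just under the highest saline library. The Retn fold change of 1.18 (95% interval 0.40 to 1.96) had an unadjusted p of 0.00729 and an adjusted p of 0.145 in limma, and rests on 3 to 109 fragments per library. Its exact 2-sided permutation p was 0.0571, where the design allows 0.0286, and 0.571 after adjustment over the 10 genes.

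Cfd was at 0.0774, 0.361, 1.24 and 1.08 with saline and 1.12, 2.86, 0.272 and 2.60 with cyclosporine A (fold change 0.61, interval -0.20 to 1.43). Fabp4 was at 17.2, 9.10, 39.0 and 44.9 and at 17.3, 36.5, 20.0 and 21.2 (-0.02, interval -1.01 to 0.97). Cidec was at 21.8, 18.4, 12.1 and 12.7 and at 9.50, 17.7, 13.9 and 5.81 (-0.50, interval -1.17 to 0.18). Plin1, with 9 to 78 fragments per library, and Lipe had fold changes of 0.14 (interval -0.20 to 0.48) and 0.16 (-0.16 to 0.48). In each of these 5 genes the groups overlapped, and the exact permutation p of the 10 genes ran from 0.0571 to 0.971.

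**Figure D4:**
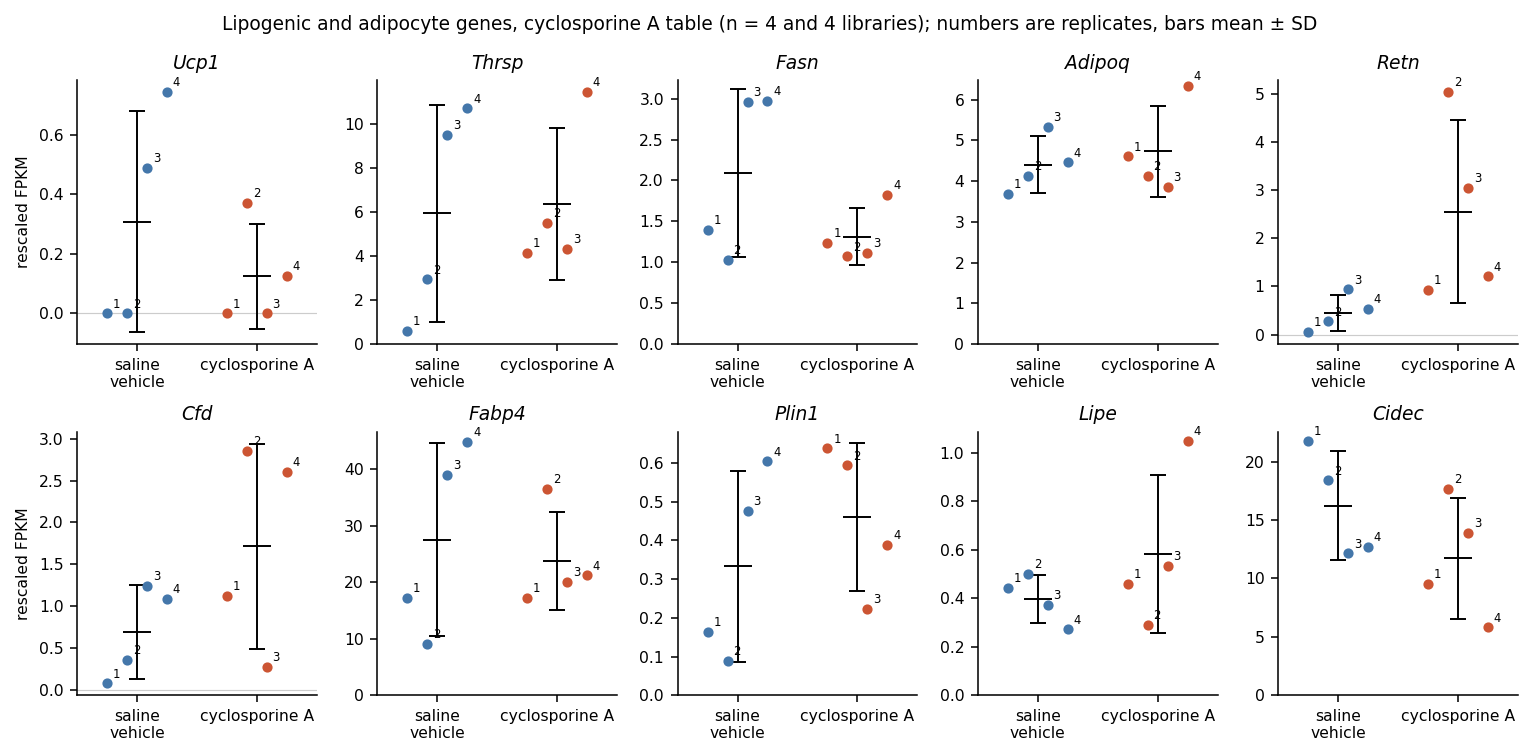
Rescaled FPKM of the 10 genes in every saline and cyclosporine A library, 1 point per library, with the mean and SD of each group (n = 4). The groups overlap for all 10 genes, and Retn has the highest ratio of drug to vehicle mean, 5.69, from 0.449 with saline to 2.55 with cyclosporine A.

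Deposited FPKM gave another picture of the same libraries. In the limma fit 4 of the 10 genes passed, Fasn (-1.19), Adipoq (-1.02), Fabp4 (-1.29) and Cidec (-1.70), but 80.5% of all genes passed as well (80.3% lower), with a median of -0.89. The mitochondrial share, 49.7% to 68.6% with saline and 80.2% to 90.8% with cyclosporine A, moves with these values.

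The defining fat cell markers summed to 33.6 to 65.0 rescaled FPKM with saline and 35.9 to 68.2 with cyclosporine A, which overlap. Fabp4 and Cidec gave 44.9 and 12.7 of the highest saline sum and 36.5 and 17.7 of the highest cyclosporine A sum. Chosen after their values were seen, some markers of other tissues are named here, beside the 10.9% of all genes whose groups do not overlap. Of 5 tested genes listed as mesothelium and capsule markers, 0 passed in limma (4 at an unadjusted p under 0.05, beside 16.1% of all genes). Msln, Upk1b and Wt1 were higher in every cyclosporine A library than in any saline library (ratios of means 6.06, 4.04 and 4.51). Gpm6a was lower in every cyclosporine A library than in any saline library. Whether these genes mark capsule in whole kidney was not tested. The 7 markers of that list summed to 19.4 to 23.9 rescaled FPKM with saline and 15.6 to 22.3 with cyclosporine A. Of 11 kidney markers, 4 were lower without overlap (Umod, Slc12a1, Lrp2 and Cubn), and Umod, which encodes uromodulin, passed in limma at -1.36, a call lost in 12 of 14 alternatives. The summed kidney markers ran from 4123 to 4629 rescaled FPKM with saline and from 2236 to 4323 with cyclosporine A. The 6 red blood cell markers summed to 393 to 1026 with saline and 599.6 to 5795 with cyclosporine A (the highest being replicate 4), with a median fold change of 1.08, and 0 of the 6 passed in limma (2 at an unadjusted p under 0.05). Sums of the lymphocyte and macrophage (3.27 to 4.72 and 2.24 to 8.35), adrenal cortex (0.447 to 1.40 and 0.362 to 1.38), skeletal muscle (2.92 to 4.17 and 2.41 to 3.80) and vessel markers (18.7 to 36.3 and 16.02 to 33.6) overlapped, and the part of any of these in the values of the 10 genes was not tested.

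Of 24 further fat synthesis genes tested with cyclosporine A, 1 was lower and 0 higher (0.604% of all genes passed), and 21 were fitted below 0 with a median of -0.271. At an unadjusted p under 0.05 there were 8, beside 16.1% of all genes. The lower gene was Me1, malic enzyme, which supplies NADPH, with means of 41.2 ± 3.83 and 23.1 ± 2.34 rescaled FPKM (SD, n = 4 each) and a fold change of -0.81 (SE 0.11, limma adjusted p 0.0229). Aqp7, an aquaglyceroporin of fat cells and of the proximal tubule, had means of 32.7 ± 0.771 and 17.7 ± 3.2 rescaled FPKM (-0.86, SE 0.12, limma adjusted p 0.0255). Both calls depended on the setting, Me1 losing it in 6 of 14 alternatives and Aqp7 in 8 (adjusted p 0.0536 to 0.0935 for each). Single libraries whose removal ended the call were saline replicates 1, 3 and 4 and cyclosporine A replicate 3 for both, and also saline replicate 2 and cyclosporine A replicate 1 for Aqp7. Of the 9 brown fat genes, 12 lipolysis and droplet genes, 9 adipokine genes and 16 regulators tested, 0 passed in limma (1, 0, 4 and 2 at an unadjusted p under 0.05), and Aqp7 was the 1 lower gene among 11 white fat genes. Srebf1 had -0.38 (limma adjusted p 0.293), Scd -1.02 (adjusted p 0.424) and Pparg 0.13 (adjusted p 0.823).

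The difference between the drugs was not tested.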

How the data were processed

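Total RNA of whole kidneys was sequenced per the labels' protocols. The authors deposited FPKM values per gene in 2 tables, with gene position and length. HISAT2 and the rn6 build are named in the submitters' processing notes. The counting tool, strand setting and annotation are not given in the sources used here. Per the values deposited, FPKM times length steps are whole fragments (tolerance 0.001) for 100.0% of values of the tacrolimus table and, with the listed lengths, 74.1% of the cyclosporine A table. There 5 of the 10 genes (Adipoq, Plin1, Fabp4, Cidec and Retn) needed lengths below the listed ones. The tacrolimus table carries median-of-ratios scaling, and the other is relative to all fragments.

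Genes with at least 10 fragments in as many libraries as the smaller group (4 or 6) and 15 in total were tested, 13569 and 15554 genes. The fit was made in limma 3.58.1 (R 4.3.3) with a trend, on log2(FPKM + 1), by group alone, with Benjamini-Hochberg adjustment over all genes tested, at an adjusted p under 0.05. The cyclosporine A table was first divided by median-of-ratios factors. Permutation tests used scipy 1.17.1. Labels number the replicates without naming separate rats, so p-values measure the spread between these libraries. Floors cover counting error only.

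The 10 genes and all lists were chosen with earlier results of these data known. Genes named beyond them were up to 4 per list that passed the test by fold change, 8 fixed pathway genes and the 8 closest to Adipoq, of which 1 is not reported here. Alternatives were other scaling, pseudocount 0.1, no filter, no trend, a replicate block, array weights and leaving out each library. Cox8b, Slc12a3 and the mesothelium and kidney markers named fall outside that rule and were picked after their values were seen.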

Additional observations from a re-analysis of the deposited data

How the results depend on the processing

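Genes called with cyclosporine A numbered 82, but 10921 on deposited FPKM (28 higher, 10893 lower), 1 without the low-value filter, 151 with array weights, and 1 (without saline replicate 4) to 140 (without cyclosporine A replicate 4) when each library was left out, within 1.5 times of 82 for cyclosporine A replicate 2 alone. With tacrolimus they numbered 47, 77 with array weights, and 36 to 49 when each library was left out. Of the 10 genes, 0 were called with cyclosporine A, and 4 on deposited FPKM. With tacrolimus 3 of the 10 passed, 3 to 5 when each library was left out, with 5 (Lipe and Retn added) without DMSO/PEG replicate 6, and 5 without tacrolimus replicates 1 and 3.

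Replicate numbers did not pair the libraries: same-numbered deviations correlated at -0.15 to 0.216 and -0.149 to 0.18, and a library matched its own number best for 1 of 4 and 2 of 6. A fit with the replicate block called 6 genes with cyclosporine A and 43 with tacrolimus, and 0 and 5 of the 10 genes passed.

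The direction with cyclosporine A turned on deposited FPKM for Thrsp (-0.66), Adipoq (-1.02), Plin1 (-0.22) and Lipe (-0.28), and with array weights for Adipoq (-0.01). Leaving out a library gave -0.20 to 0.76 for Thrsp, -0.05 to 0.15 for Adipoq and -0.44 to 0.29 for Fabp4. With tacrolimus the fold changes of the 10 genes kept their sign in all 19 alternatives, and Ucp1 reached -5.39 with a pseudocount of 0.1. The cause of these shifts was not tested. Few fragments limit Ucp1, Retn, Cfd and Plin1 in the cyclosporine A table.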
